A study of Homo sapiens with 16 samples.

Results

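The CDK inhibitor genes are the 7 human genes CDKN1A, CDKN1B, CDKN1C, CDKN2A, CDKN2B, CDKN2C and CDKN2D, and they were taken by gene symbol from the 20502 named genes of the expression matrix. All 7 passed the filter on low values, along with 14544 genes in all. The libraries came from breast cancer, namely from the 8 established cell lines HCC1143, HCC1395, HCC38, HCC70, MDA-MB-157, MDA-MB-231, MDA-MB-436 and MDA-MB-468, each sequenced after 6 h with TLT or with its vehicle DMSO. TLT is topsentinol L trisulfate, a sulfated sterol from a marine sponge, and it was given at the dose named EC75, with no concentration in the labels. For its protein array of the same 8 lines, the paper describes a single dose near the average EC75 of the lines. EC75 is thus not to be read as each line's own dose of equal effect. Each line gave 1 DMSO and 1 TLT library, so there were 8 pairs and 16 libraries. How many cultures stand behind a library is not given in the sources used here. The study's text calls HCC1143, HCC1395, HCC70 and MDA-MB-468 basal-like and the other 4 lines claudin-low. The labels of the libraries do not carry that class, so it was not used as a group here.

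Cyclin-dependent kinases (CDKs) drive the cell cycle when bound to cyclins, and the proteins of these genes hold the kinases back. The CIP/KIP proteins p21 (CDKN1A), p27 (CDKN1B) and p57 (CDKN1C) bind complexes of cyclin and CDK and act mostly on CDK2. The INK4 proteins p16 (CDKN2A), p15 (CDKN2B), p18 (CDKN2C) and p19 (CDKN2D) bind CDK4 and CDK6 and keep them from cyclin D. When CDK4, CDK6 and CDK2 are held back, the retinoblastoma protein RB1 stays active and keeps E2F factors from switching on genes of DNA replication. CDKN2A and CDKN2B lie side by side on the short arm of chromosome 9, at band 9p21, a region often deleted in tumors together with the neighboring gene MTAP.

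In GRCh37, the genome of the deposited values, the GENCODE annotation places CDKN1A on the plus strand at chr6:36644237-36655114, CDKN1B on the plus strand at chr12:12838432-12875303 and CDKN1C on the minus strand at chr11:2904443-2907005. CDKN2A (chr9:21967751-21995300) and CDKN2B (chr9:22002902-22009304) both lie on the minus strand, 7602 bases apart. CDKN2C lies on the plus strand at chr1:51426417-51440306 and CDKN2D on the minus strand at chr19:10677136-10679735. CDKN2A has separate first exons, so that 1 gene gives p16 and, from the more distant start, ARF, a protein in another reading frame. The values per gene do not separate these transcripts.

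The 250 bases before a start site are shown for CDKN1A, the inhibitor gene that rose most with TLT, and for the neighbors CDKN2A and CDKN2B, whose levels went together from line to line. The sequences are RefSeq's, on GRCh38.p14, read 5′ to 3′ on the strand of the gene, and the capitals mark GC boxes, the letters GGGCGG or their complement CCGCCC, the kind of site that SP1 binds.
CDKN1A, chr6:36678464-36678713, plus strand: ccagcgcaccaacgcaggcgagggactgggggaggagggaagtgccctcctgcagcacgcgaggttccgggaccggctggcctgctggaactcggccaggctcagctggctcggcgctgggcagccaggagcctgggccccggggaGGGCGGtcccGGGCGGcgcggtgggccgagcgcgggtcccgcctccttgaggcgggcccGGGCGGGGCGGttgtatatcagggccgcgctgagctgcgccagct
CDKN2A, start of p16, chr9:21974858-21975107, minus strand: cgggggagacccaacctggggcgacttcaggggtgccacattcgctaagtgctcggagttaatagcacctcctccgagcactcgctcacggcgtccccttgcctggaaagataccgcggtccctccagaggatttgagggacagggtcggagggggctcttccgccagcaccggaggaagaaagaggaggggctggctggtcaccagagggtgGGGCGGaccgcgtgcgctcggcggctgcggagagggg
CDKN2A, start of ARF, chr9:21995325-21995574, minus strand: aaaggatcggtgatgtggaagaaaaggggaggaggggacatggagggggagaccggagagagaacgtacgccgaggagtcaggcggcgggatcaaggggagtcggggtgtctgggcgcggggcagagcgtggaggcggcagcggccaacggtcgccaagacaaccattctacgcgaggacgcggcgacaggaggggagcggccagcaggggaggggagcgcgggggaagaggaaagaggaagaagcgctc
CDKN2B, chr9:22009306-22009555, minus strand: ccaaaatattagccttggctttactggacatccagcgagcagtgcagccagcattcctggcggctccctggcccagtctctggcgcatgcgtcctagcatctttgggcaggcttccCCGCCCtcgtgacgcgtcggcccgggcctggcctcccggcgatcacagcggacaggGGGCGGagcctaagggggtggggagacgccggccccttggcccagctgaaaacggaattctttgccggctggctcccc

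The CDKN1A window held 4 GC boxes, 2 of which overlap in a run just before the start, and 76.4% of its bases were G or C, against a median of 58.0% over all promoters of the table. The CDKN2B window held 2 GC boxes, the p16 window 1 and the ARF window 0. RefSeq gave 9 windows for 6 of the 7 genes, and 7 of the 9 held a GC box on either strand, which 42.6% of 35116 promoter windows of the same length also held. Some genes gave more than 1 window, and the share of G or C ran from 45.6% to 77.2% over the windows, which was not allowed for here. A TATA box (TATAAA) was in 0 of the 9 windows and in 10.7% of all promoters. Of the other letters searched, TGACG was in 4 of 9 windows (21.2% of all promoters) and CACGTG in 2 (6.34%). CCAAT was in 3 (32%) and TGANTCA, where N is any base, in 0 (6.57%). These are matches of letters only.

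The values are RSEM estimates of reads per gene after upper quartile normalization, on a scale where 1000 stands near the 75th percentile of a library's expressed genes. They are not divided by gene length, so levels are compared between lines within a gene and not between genes. Libraries held about 10.57 to 20.07 M reads, as estimated from the steps between low values. Of the cell type markers, epithelial genes summed to 773 to 72165 in the DMSO libraries and mesenchymal genes to 930 to 145770, and 4 of 6 and 2 of 4 were called higher with TLT (KRT7, VIM and FN1 not after quantile normalization). Of 6 blood cell markers, PTPRC had a mean of 0.243 in DMSO and HBB of 0, and 1 of the 6, the receptor gene CD14, was abundant enough to test and was higher with TLT (139 against 283 on average). What part any of these had in the changes below was not tested. Changes were fitted with limma on log2(value + 1) with cell line as a block, and p-values were adjusted over all genes tested. At an adjusted p under 0.05, 3774 genes (25.9%) were called, 2188 of them higher with TLT (15%) and 1586 lower (10.9%), with a median change of 0.05 on the log2 scale. Of the CDK inhibitor genes, 5 of 7 were called, CDKN1A, CDKN1C, CDKN2B and CDKN2D higher and CDKN2C lower. The plot of levels by line shows all 7 genes in all 16 libraries.

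**Figure D1:**
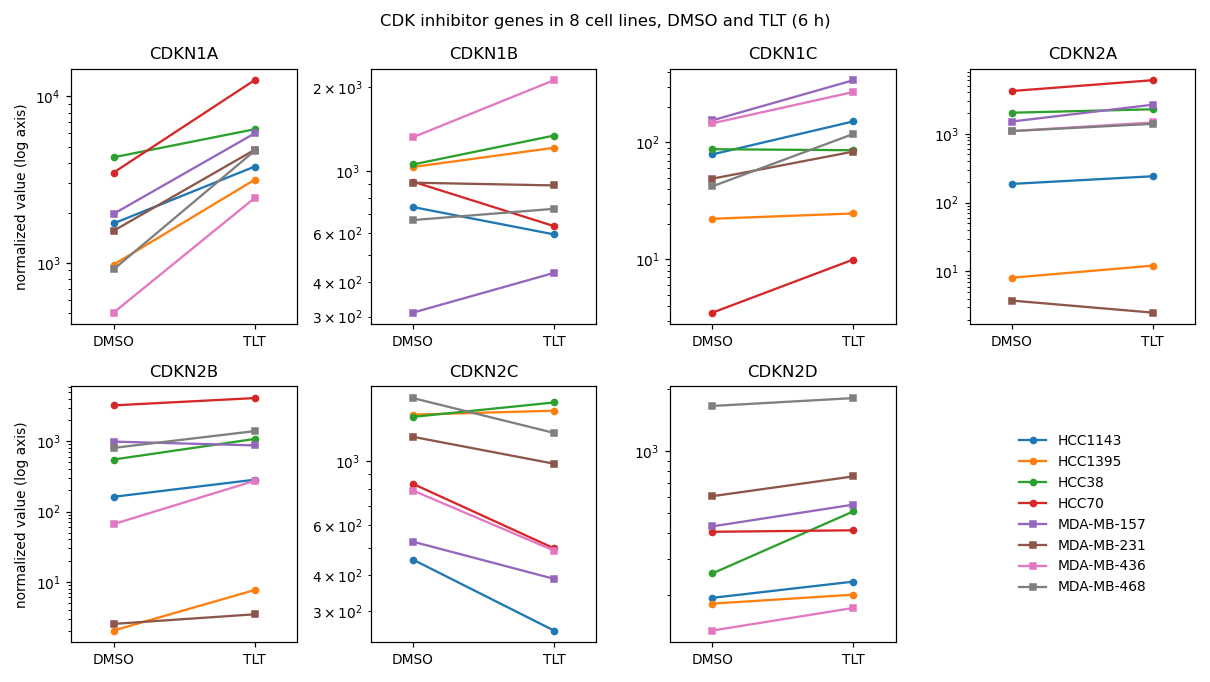
Normalized values (log axis, a separate scale for each gene) of the 7 CDK inhibitor genes in the DMSO and the TLT library of each of 8 cell lines; each line of the plot joins both libraries of 1 cell line, circles are HCC lines and squares MDA-MB lines. CDKN1A ran upward in 8 of 8 lines, while HCC1395 and MDA-MB-231 lay far below the other lines in CDKN2A and CDKN2B under both treatments.

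CDKN1A, which encodes p21, rose with TLT in every line. In DMSO its level was 1724 in HCC1143, 975 in HCC1395, 4307 in HCC38, 3485 in HCC70, 1969 in MDA-MB-157, 1558 in MDA-MB-231, 502 in MDA-MB-436 and 913 in MDA-MB-468. With TLT it was 3785 in HCC1143, 3154 in HCC1395, 6346 in HCC38, 12517 in HCC70, 5990 in MDA-MB-157, 4772 in MDA-MB-231, 2449 in MDA-MB-436 and 4704 in MDA-MB-468. The ranges of both treatments overlapped, since lines started from different levels, but 5 of 8 TLT values lay above the highest DMSO value. The mean went from 1929 ± 1322 in DMSO to 5465 ± 3142 with TLT (SD, n = 8), and the fitted change on the log2 scale was 1.64 (SE 0.16, 95% interval 1.29 to 1.98, adjusted p = 9.33e-05 in limma), a 3.11-fold rise.

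The size of the CDKN1A rise varied between lines. The ratio of TLT to DMSO was 5.15 in MDA-MB-468 and 4.88 in MDA-MB-436, the lines with the lowest levels in DMSO. It was 1.47 in HCC38, the line with the highest level in DMSO, and 2.20 in HCC1143. Across the 8 lines the log2 change and the DMSO level had a Pearson r of -0.73, given as a description, and the DMSO value enters both measures. The 4 MDA-MB lines, sequenced in 1 lane, changed by 1.97 on average on the log2 scale (range 1.60 to 2.36), and the 4 HCC lines, in the other lane, by 1.31 (range 0.56 to 1.84). Each lane held both treatments of its lines, and fitted alone either set of lines gave CDKN1A higher (adjusted p = 0.000553 and 0.0332 in limma). The difference between both sets was not tested, and lane and family of lines cannot be told apart.

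CDKN1A levels in DMSO fell into steps. HCC38 and HCC70 were the highest and differed by less than the SD of the within-line changes (0.59 on the log2 scale), MDA-MB-157, HCC1143 and MDA-MB-231 followed without a larger gap among them, HCC1395 and MDA-MB-468 were next, and MDA-MB-436 stood lowest. There was 1 library per line and treatment, so the error of a single level could not be measured. This SD describes how the change with TLT varied between lines, and it serves only as a rough scale for the gaps. The genes whose log2 levels followed CDKN1A most closely over the 16 libraries were SLC38A2, an amino acid transporter (r = 0.861), TIPARP, an ADP-ribosyltransferase (r = 0.841), and TMBIM6, a protein of the endoplasmic reticulum membrane (r = 0.795). Each of them was called higher with TLT, by 1.0, 1.34 and 0.43 on the log2 scale. The 16 libraries span both treatments, so the choice by r itself favored genes that rise with TLT. Of the nearest genes beside CDKN1A, KCTD20 fell by 0.34 and was lower in 8 of 8 lines, and STK38, a kinase gene, and PPIL1, a cyclophilin gene, were not called.

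**Figure D2:**
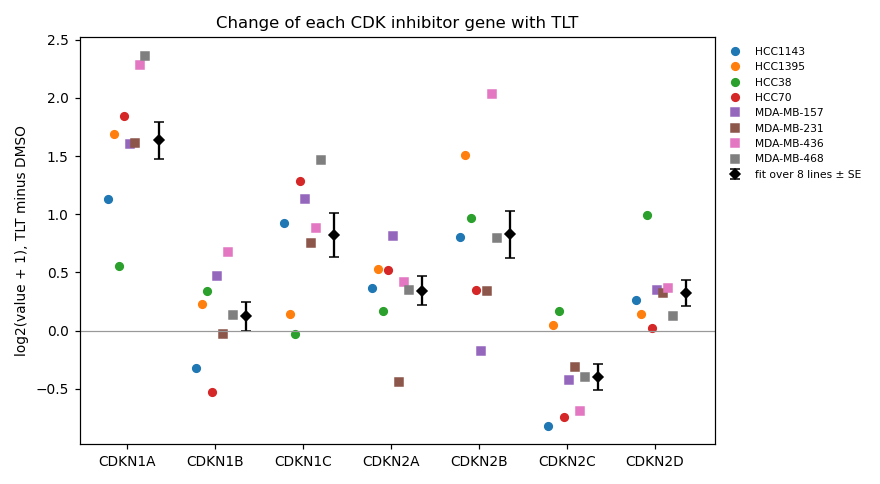
Change with TLT on the log2(value + 1) scale for each CDK inhibitor gene, with 1 point per cell line (circles HCC, squares MDA-MB) and the limma estimate over 8 lines with its SE as a black diamond. CDKN1A changed by 0.56 to 2.36 and lay above the other genes on average; the CDKN2C estimate was the 1 below 0.

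CDKN1B, which encodes p27, showed no change that passed the test. Its level was 868 ± 302 in DMSO and 992 ± 549 with TLT (SD, n = 8), and the change on the log2 scale was 0.12 (SE 0.12, 95% interval -0.14 to 0.39, adjusted p = 0.49 in limma). By line, it went from 1320 to 2115 in MDA-MB-436 and from 310 to 431 in MDA-MB-157, and from 915 to 634 in HCC70 and 742 to 592 in HCC1143. TLT values were higher in 5 lines and lower in 3, and the interval leaves room for a rise of 0.39. In the order of DMSO levels, 6 of the 7 gaps between neighbors were within the SD of the changes, but the levels still ran from 666 in MDA-MB-468 to 1320 in MDA-MB-436, with MDA-MB-157 below them. The most similar genes over the 16 libraries were WNK1 (r = 0.913), WBP11 (r = 0.912) and PEX5 (r = 0.909). The annotation of CDKN1B overlaps GPR19 on the other strand, and the libraries carry no strand, so reads of the overlap cannot be told apart.

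CDKN1C, which encodes p57, a growth inhibitor expressed from the maternal allele in many tissues, was low and rose. In DMSO it stood at 79.0 in HCC1143, 22.2 in HCC1395, 87.5 in HCC38, 3.5 in HCC70, 154 in MDA-MB-157, 49.0 in MDA-MB-231, 146 in MDA-MB-436 and 42.1 in MDA-MB-468. With TLT it stood at 151, 24.7, 85.7, 9.97, 340, 83.5, 270 and 118 in the same order of lines. It was higher in 7 of 8 lines, the exception being HCC38, and the treatment ranges overlapped. The change on the log2 scale was 0.82 (SE 0.19, 95% interval 0.41 to 1.23, adjusted p = 0.00823 in limma). The low level in HCC70 rested on about 3 reads in DMSO and 11 with TLT, and without HCC70 the change was 0.76 (adjusted p = 0.0167 in limma). MDA-MB-157 and MDA-MB-436 had the highest levels under both treatments. PHLDA2, an imprinted growth regulator gene in the same cluster, was also higher, by 0.54 on the log2 scale, while SLC22A18, a transporter gene beside it, was not called.

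CDKN2A, the first of the INK4 genes, differed widely between the lines. In DMSO its level was 186 in HCC1143, 2017 in HCC38, 4167 in HCC70, 1502 in MDA-MB-157, 1092 in MDA-MB-436 and 1092 in MDA-MB-468, against 8.09 in HCC1395 and 3.77 in MDA-MB-231. The last values rest on about 8 and 3 reads, and with TLT they were 12.1 and 2.52 (about 9.8 and 1.7 reads). HCC1395 and MDA-MB-231 thus held near 0 CDKN2A RNA under both treatments, HCC1143 a low level, and the other 5 lines more than 1000. In CDKN2A, 1 of 7 gaps between neighboring lines was within the SD of the changes.

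CDKN2B, 7602 bases away, set the same lines apart. Its DMSO level was 2.02 in HCC1395 and 2.51 in MDA-MB-231, about 2 reads each, and 162 in HCC1143, 550 in HCC38, 3243 in HCC70, 989 in MDA-MB-157, 66.1 in MDA-MB-436 and 804 in MDA-MB-468. The Pearson r of the log2 levels of CDKN2A and CDKN2B over the 8 DMSO libraries was 0.94, and both were highest in HCC70. MDA-MB-436 departed from the pattern, with CDKN2A at 1092 and CDKN2B at 66.1. The genes share near-identical exon stretches, so RSEM may have split reads between them, and the part of this in their similarity was not tested.

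The low levels reached past the inhibitor genes in HCC1395 and MDA-MB-231. MTAP, an enzyme of methionine salvage 30101 bases from CDKN2A, was at 8.09 in HCC1395 and 22.6 in MDA-MB-231 and at 308 to 2564 in the DMSO libraries of the other 6 lines. CDKN2BAS, the antisense RNA that overlaps CDKN2B, was listed at 0 in all 4 libraries of these lines and at 15.8 to 60.7 in DMSO in the other 6. MTAP (r = 0.966), CDKN2BAS (r = 0.965) and CDKN2B (r = 0.952) were the 3 genes most similar to CDKN2A over all 16 libraries. These correlations rest largely on the step between the 2 lines and the rest, and for CDKN2B the antisense RNA cannot be told apart in unstranded reads.

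Farther out, the lines with low CDKN2A differed from each other. On the CDKN2B side, DMRTA1, a transcription factor gene 451523 bases from CDKN2A, was at 0 in MDA-MB-231 and at 152 in HCC1395, close to the highest value of the other 6 lines (153 in MDA-MB-157). ELAVL2, a neuronal RNA-binding protein gene 1694802 bases away, was at 1.26 in MDA-MB-231 and at 55.6 in HCC1395. On the MTAP side, KLHL9, an adaptor of a ubiquitin ligase chosen after its values were seen, lies 632348 bases from CDKN2A and was at 69.1 in MDA-MB-231, at 828 in HCC1395 and at 265 to 1829 in the others. With TLT, KLHL9 fell by 1.22 on the log2 scale and was lower in 7 of 8 lines (adjusted p = 0.00451 in limma), whereas MTAP, DMRTA1 and ELAVL2 were not called. Low values thus extended over MTAP, CDKN2A, CDKN2BAS and CDKN2B in HCC1395, and in MDA-MB-231 the values of KLHL9, DMRTA1 and ELAVL2 were also the lowest of the 8 lines. MLLT3, a chromatin reader gene farther out on the MTAP side (1345253 bases from CDKN2A) that was also chosen after its values were seen, was not low in either line, at 214 in MDA-MB-231 and 230 in HCC1395 against 24.2 to 1018 in the others. DMRTA1 and ELAVL2 were low in HCC38 as well (3.55 each), a line with CDKN2A at 2017. RNA levels do not measure the number of gene copies, which was not analysed here.

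**Figure D3:**
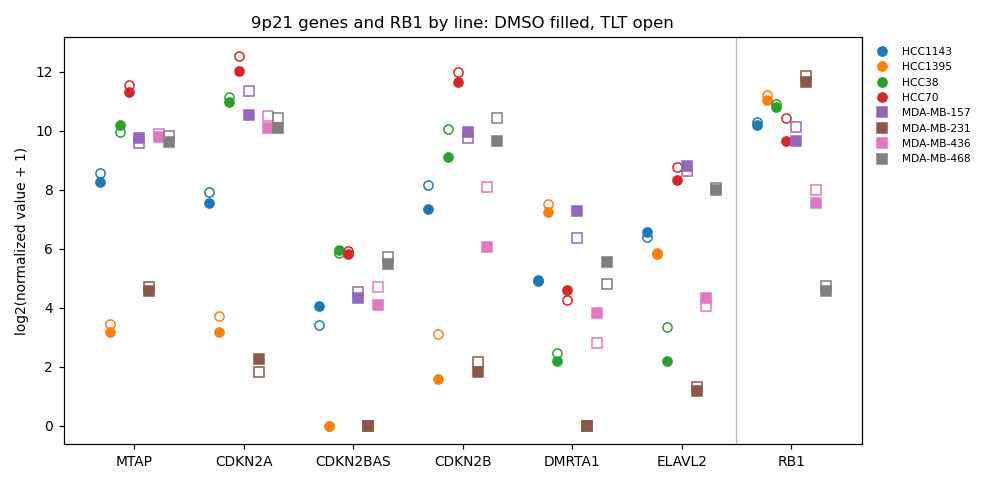
Levels on the log2(normalized value + 1) scale of genes at 9p21, in their order along the chromosome, and of RB1, by cell line, with DMSO as filled and TLT as open points. HCC1395 and MDA-MB-231 lay lowest in MTAP, CDKN2A, CDKN2BAS and CDKN2B, MDA-MB-231 also in DMRTA1 and ELAVL2, and MDA-MB-468 lowest in RB1.

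RB1, the protein that INK4 inhibitors keep active, was low in other lines than CDKN2A. Its DMSO level was 22.7 in MDA-MB-468 and 189 in MDA-MB-436, and 804 to 3191 in the other 6 lines. CDKN2A stood at 1092 in both of these lines, while RB1 was highest in MDA-MB-231 (3191) and HCC1395 (2114), where CDKN2A was lowest. The r of their log2 levels was -0.49 over 8 DMSO libraries, given as a description. HCC70, HCC38, MDA-MB-157 and HCC1143 held both transcripts, HCC1143 with CDKN2A at 186 and RB1 at 1187.

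With TLT, CDKN2A was 1749 ± 1985 against 1259 ± 1385 in DMSO (SD, n = 8), a change of 0.34 on the log2 scale that missed the threshold (SE 0.12, 95% interval 0.07 to 0.61, adjusted p = 0.0594 in limma). It was higher in 7 of 8 lines, by 0.81 in MDA-MB-157 and by 0.17 to 0.53 in the other 6, and the value below 0 came from MDA-MB-231 with its 3 reads or fewer. Without MDA-MB-231 the change was 0.45 (adjusted p = 0.00763 in limma), and without HCC1395 as well it was 0.44 (adjusted p = 0.0126). After quantile normalization of all 8 lines the change was 0.19 (adjusted p = 0.316), so the size of the CDKN2A change moved with the scaling, and its call with a line that held hardly any of its RNA.

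CDKN2B was called higher, from 727 ± 1085 to 1004 ± 1359 (SD, n = 8), by 0.83 on the log2 scale (SE 0.21, 95% interval 0.38 to 1.27, adjusted p = 0.0118 in limma). In TLT it reached 273 in MDA-MB-436, 1078 in HCC38, 1395 in MDA-MB-468, 284 in HCC1143 and 4120 in HCC70, and it went from 989 to 874 in MDA-MB-157. The ratio was largest in MDA-MB-436, at 4.13, and the values of HCC1395 (7.62) and MDA-MB-231 (3.44) rested on about 6.2 and 2.3 reads. Without both of these lines the change was 0.79 (adjusted p = 0.0292 in limma). The changes of CDKN2A and CDKN2B did not follow each other from line to line (r = 0.007 over 8 lines, a description), in contrast to their levels.

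CDKN2C, which encodes p18, was the inhibitor gene that fell. In DMSO it was 454 in HCC1143, 1451 in HCC1395, 1426 in HCC38, 833 in HCC70, 524 in MDA-MB-157, 1215 in MDA-MB-231, 789 in MDA-MB-436 and 1657 in MDA-MB-468. With TLT it was 257, 1498, 1600, 497, 389, 979, 488 and 1254 in the same order of lines. It was lower in 6 lines and slightly higher in HCC1395 and HCC38, and the treatment ranges overlapped almost fully. The change was -0.40 on the log2 scale (SE 0.11, 95% interval -0.64 to -0.15, adjusted p = 0.0217 in limma), and the call was lost without HCC1143 (adjusted p = 0.0566), HCC70 (0.0536) or MDA-MB-436 (0.0661). The genes most like it over the 16 libraries were NCAPD3, a condensin subunit (r = 0.948), CENPI, a centromere protein (r = 0.909), and MEGF9 (r = 0.883). Each was called lower as well, which a choice over both treatments favors in part. FAF1, which starts 478 bases away on the other strand, and RNF11 were not called.

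CDKN2D, which encodes p19, was higher in 8 of 8 lines by a small amount. It was 484 ± 501 in DMSO and 582 ± 537 with TLT (SD, n = 8), with a change of 0.32 on the log2 scale (SE 0.11, 95% interval 0.08 to 0.56, adjusted p = 0.0476 in limma). Its level was highest in MDA-MB-468, at 1661 in DMSO and 1814 with TLT, and lowest in MDA-MB-436, at 135 and 173. HCC38 changed most, from 255 to 511, and the other 7 lines by 0.02 to 0.36 on the log2 scale. The call lay at the edge of the threshold and was lost without any 1 of 7 lines (adjusted p = 0.0582 to 0.0950 in limma), HCC70 being the exception. RAB6C (r = 0.926), RAB6A (r = 0.924) and PPME1 (r = 0.915) were most like it over the 16 libraries, and RAB6C and RAB6A are near-identical copies that can share reads.

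The partners of the inhibitors were read from the same fit, in which 25.9% of all genes were called. Of 11 genes for the cyclins and CDKs that the inhibitors hold, 1 was called, CCND1, which encodes cyclin D1, at 0.46 (SE 0.11, adjusted p = 0.0102 in limma, higher in 7 of 8 lines), and their median change was -0.04. After quantile normalization CDK2 was called as well, lower by 0.25 (adjusted p = 0.0182 in limma). Of the 3 pocket proteins, RBL1, the p107 gene, was lower by 0.45 in 8 of 8 lines. RB1 was higher by 0.30 in 8 of 8 lines, a call that was lost after quantile normalization (0.24, adjusted p = 0.101 in limma), and RBL2 was not called. Of 15 E2F and RB targets, 0 were called higher (2 at an unadjusted p under 0.05) and 3 lower, namely RRM2, a subunit of ribonucleotide reductase (-0.62), and the replication genes MCM10 (-0.54) and MCM5 (-0.36). At 3 of 15, this share of lower calls stood beside 10.9% over all genes. After quantile normalization CDC6, MCM4 and MCM6, which act at replication origins, were called lower as well (-0.48, -0.25 and -0.18). After scaling each library by its median ratio to the others, MCM7 was instead called higher (0.196, adjusted p = 0.044 in limma).

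Genes for the turnover of p21 and p27 moved in both directions. SKP2, the subunit of a ubiquitin ligase that recognizes p27 and p21, was lower in 8 of 8 lines, from 1221 to 888 on average, by 0.55 on the log2 scale (SE 0.13, adjusted p = 0.00904 in limma). DTL, which directs p21 to another ligase, was lower in 8 of 8 lines, from 2130 to 1516, by 0.59 (SE 0.15, adjusted p = 0.0124 in limma). CKS1B, the partner of SKP2, was higher by 0.31 and the ligase subunits RBX1, CUL4B and SKP1 by 0.35, 0.24 and 0.21. After quantile normalization CKS1B (0.16), CUL4B (0.084) and SKP1 (0.026) were not called, while SKP2, DTL and RBX1 were. Of the 12 genes, 4 were thus higher in the main fit, 2 lower and 6 not called, where 15% of all genes were higher and 10.9% lower. After median-ratio scaling CUL4A was called higher as well (0.225, adjusted p = 0.0484 in limma).

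Among 17 genes for transcription factors known to act on CDKN1A or CDKN1B, 3 were called higher, beside 15% of all genes, and 0 lower (2 lower at an unadjusted p under 0.05). After quantile normalization SP1 and SP3, which bind GC boxes, were called lower (-0.48 each, adjusted p = 0.0380 and 0.0434 in limma). NR4A1, an orphan nuclear receptor and early response gene, rose from 84.3 to 432 on average (2.26 on the log2 scale, SE 0.32, adjusted p = 0.000586 in limma). ATF3, a stress response factor, rose by 1.33 and KLF4, which can bind the CDKN1A promoter, by 0.75, and each of the 3 was higher in 8 of 8 lines.

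Of 10 genes whose proteins are known to repress the INK4 genes, 1 was higher and 2 were lower, and 3 of 10 is near the 25.9% called over all genes. CBX7, a Polycomb subunit, fell from 221 to 131 on average, by 0.81 on the log2 scale, and ID1, an inhibitor of helix-loop-helix factors, by 1.14, each lower in 8 of 8 lines. TBX2, a T-box repressor, was higher by 0.79, in 6 of 8 lines, and lost its call after quantile normalization (0.71, adjusted p = 0.0631 in limma). The mean of TBX2 went only from 157 to 184, and its lowest values were 0 in DMSO and 2.72 with TLT. The part of such low values in its change was not tested. Of the 5 genes used as a sign of RNA quality, ACTB and GAPDH were higher (0.28 and 0.26), but at 0.068 and -0.0084 and not called after quantile normalization. The nuclear RNA NEAT1 was lower, by 1.53, in 8 of 8 lines. MALAT1, also a nuclear RNA, was not called (0.06, higher in 4 lines and lower in 4), nor was TBP (0.12). What part RNA content or turnover had in the changes of the inhibitor genes was not tested.

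**Figure D4:**
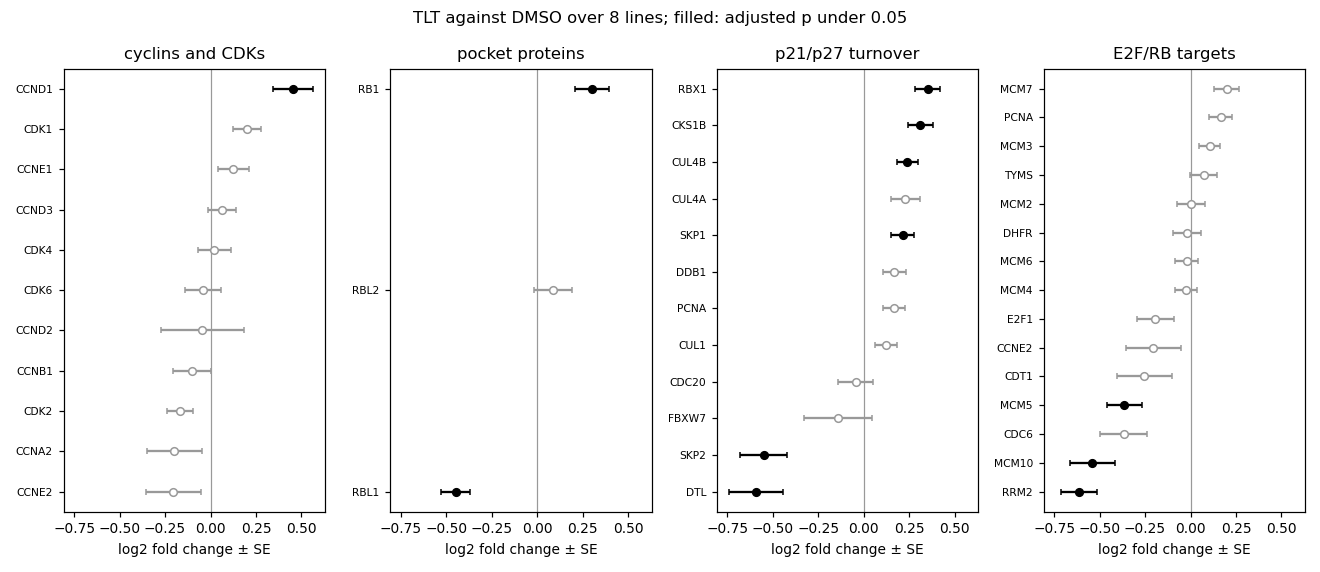
Fitted log2 fold changes with TLT (points, with SE bars) for genes of 4 lists, filled where the adjusted p was under 0.05 and open otherwise. SKP2 and DTL lay lowest among the turnover genes, CCND1 was the 1 called gene of 11 cyclin and CDK genes, and the 3 called E2F and RB targets, RRM2, MCM10 and MCM5, lay below 0.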

How the data were processed

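The authors aligned single reads of 50 cycles from unstranded oligo(dT) libraries to hg19 with MapSplice and estimated gene values with RSEM. What they deposited is a signal scaled by the upper quartile of each library. Per the labels, DESeq2 1.4.5 served the authors for testing; its results were not used. Of 20531 rows, 29 without a gene name (0.0398% of the signal) were left out. A second sheet of the same libraries and a table of the authors' fold changes per line were not used. At most 84.8% of low values were whole reads (within 0.01), so no count test was run.

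Genes with a mean of at least 10 were kept, and limma 3.58.1 (R 4.3.3) was run on log2(value + 1) with a treatment term and a cell line block, using robust moderation with a trend. Adjustment followed Benjamini-Hochberg, with a threshold of 0.05. This log2 scale understates the change of low genes. The labels pair the libraries by cell line, and after the treatment means were subtracted the paired libraries correlated at 0.900 to 0.954. With 1 library per line and treatment, p-values set the mean change against the moderated spread of the within-line changes. The block removes the differences in level between lines. The fit was tested on simulated data. Read numbers behind low values were estimated and cover counting error only. Named genes were drawn from the 7 members, their 2 nearest protein-coding genes in the matrix on each side, and up to 4 called genes of smallest p per list. MTAP, RB1 and the 3 most similar genes were added. Not every gene under this rule is named, and for CDKN2D no neighbor is. Genes named outside that rule (KLHL9, MLLT3, uncalled list members) serve as context. The members and lists were chosen with earlier results of these data known. Alternatives were other normalizations, pseudocounts (0.1, 10), filters (none, 100), moderation, no block, each lane alone and each line left out. Plots were drawn with matplotlib 3.10.9 in Python 3.11.15. Some results are not reported here.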

Additional observations from a re-analysis of the deposited data

Results flagged for a closer look

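In 14 groups of 8 lines examined (the log2 level in DMSO and the change of each CDK inhibitor gene), 2 held a single line far from the others. The rule used the gap of the outermost line to the next, as a share of the range, and chance gives about 1 group in 20. HCC1395 and MDA-MB-231, which were low together in CDKN2A and CDKN2B, were not flagged by it. So few flags are no measure of a rate beyond chance. CDKN1B in DMSO was lowest in MDA-MB-157, at 8.28 on the log2 scale, and its gap to the next line was 0.527 of the whole range. The change of CDKN2D with TLT was largest in HCC38, at 0.998 on the log2 scale, with a gap of 0.653 of the range.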

How the results depend on the processing

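The fit without the replicate block by cell line ignores that both libraries of a line are paired. It called 0 of the 7 inhibitor genes (1 at an unadjusted p under 0.05) and 7 of all genes (517) in limma. With 1 library per line and treatment, the estimates are the same with or without the block by design, and only their errors differ. These estimates were CDKN1A 1.64, CDKN1C 0.82, CDKN2B 0.83, CDKN2C -0.40 and CDKN2D 0.32 on the log2 scale, here with adjusted p from 0.37 to 1. In the MDA-MB lines alone 2 inhibitor genes and 1377 genes were called, and CDKN2B (0.75), CDKN2C (-0.46) and CDKN2D (0.29) were not. In the HCC lines alone 1 and 170 were called, CDKN1C (0.58), CDKN2B (0.91), CDKN2C (-0.34) and CDKN2D (0.36) were not, and CDKN1B turned to -0.070. Fewer lines lower the power of these fits. CDKN2D lost its call at a pseudocount of 0.1 (0.32), with no filter (0.32), with neither trend nor robust moderation (0.32) and without HCC1395 and MDA-MB-231 together (0.35), the last chosen after seeing the data. CDKN2A gained one at a pseudocount of 10 (0.35) and without both lines (0.44). Leaving out 1 line at a time, 3 to 5 inhibitor genes and 2421 (without MDA-MB-436) to 3898 genes were called, CDKN1A, CDKN1C and CDKN2B in every case. The changes ranged from 1.53 to 1.79 for CDKN1A, 0.04 to 0.21 for CDKN1B, 0.73 to 0.94 for CDKN1C, 0.27 to 0.45 for CDKN2A, 0.65 to 0.97 for CDKN2B, -0.48 to -0.34 for CDKN2C and 0.23 to 0.37 for CDKN2D. Of all called genes 58.0% were higher, 47.2% after quantile normalization and 72.9% in the HCC lines alone. CDKN1A was called in every fit with the block.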
